A study of Mus musculus with 8 samples.

Results

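The mature miRNAs of the miR-15, miR-16, miR-195 and miR-497 family were examined in testis small RNA of 8 adult C57Bl/6 male mice. Members were chosen by name, and every table entry of the miRNA class called miR-15a, miR-15b, miR-16, miR-195, miR-497, miR-322 or miR-503, with either arm, was taken. This gave 14 of the 20558 small RNAs counted, or 14 of 576 mature miRNAs. The 4 SD mice (M1N, M2N, TN1 and TN2) were controls on standard chow, and the 4 WD mice (M1W, M2W, M3W and M5W) received a Western-like diet rich in fat and sugar. The labels set the start of the lipid-rich diet at 4 weeks of age, which the study's methods place slightly earlier, and mating at 4 months. They carry this text for the controls too, so the diets were read from the control and experimental marks of the sample titles. What distinguishes the names beginning with M from those beginning with TN is not stated. The p-values set the difference between diets against the spread between mice, all 8 unless a smaller set is named.

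A miRNA guides silencing complexes to messenger RNAs mainly through its seed, bases 2 to 8 from the 5′ end, so miRNAs with the same seed can act on overlapping sets of targets. The miR-15 and miR-16 family is known for restraining the cell cycle through cyclins and cyclin-dependent kinases and for targeting the survival factor Bcl2, and miR-195 for its part in the withdrawal of heart muscle cells from the cycle after birth. The testis holds dividing and meiotic germ cells beside Sertoli, Leydig, vessel and blood cells, and whole tissue sums over all of them.

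The 5p arms are shown with the seed in capitals, because the shared seed is what makes these genes a family. The sequences are those of RefSeq for the GRCm38.p6 assembly, in which miR-195 and miR-497 of the count table are called miR-195a and miR-497a. All 14 members were matched.
miR-16-5p: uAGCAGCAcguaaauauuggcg
miR-15b-5p: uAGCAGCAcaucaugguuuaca
miR-15a-5p: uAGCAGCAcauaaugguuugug
miR-195-5p: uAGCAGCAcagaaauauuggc
miR-497-5p: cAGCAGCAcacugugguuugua
miR-322-5p: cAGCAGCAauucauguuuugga
miR-503-5p: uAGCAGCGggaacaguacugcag

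The first 6 have 1 seed in common, and miR-503-5p departs from it at its last base (A8G against miR-16-5p, counted from 1 at the 5′ end). Bases 2 to 7 are the same in all 7 members, and 7 of the 697 RefSeq miRNAs whose names end in 5p carry them there. RefSeq entries named without an arm were not in this count. Over their whole length the arms differ by up to 12 of 22 bases. The closest pair is miR-16-5p and miR-195-5p, which differ at 2 of 21 bases (G10A and U11G). The authors' alignment allowed 2 mismatches, so reads of miR-16-5p and miR-195-5p may have been exchanged, and levels of this pair are uncertain to that degree. miR-15b-5p and miR-15a-5p differ at 4 of 22 bases.

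The 3p arms have a different seed each. The 5 that hold GCUGC are shown with it in capitals, as it is the reverse complement of the GCAGC in the seed of the 5p arms.
miR-16-2-3p: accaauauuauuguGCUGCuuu
miR-15b-3p: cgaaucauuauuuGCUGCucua
miR-15a-3p: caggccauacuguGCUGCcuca
miR-195-3p: ccaauauuggcuguGCUGCucc
miR-322-3p: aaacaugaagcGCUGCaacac

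These letters were searched on the mature strand only and occur in 5 of the 7 family 3p arms, as against 3.67% of 709 RefSeq 3p arms. They were chosen to mirror the seed that defines the family, so the comparison is not independent of that choice. The 3p arms of miR-497 and miR-503 lack them.

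The genes lie at 4 places in NCBIM37 (mm9), the build of the authors' alignment. On chromosome 14, miR-15a-5p (chr14:62250912-62250933) and 1 copy of miR-16-5p (chr14:62250773-62250794) lie on the minus strand in an intron of the non-coding gene Dleu2. On chromosome 3, miR-15b-5p (chr3:68813697-68813718) and the other copy of miR-16-5p (chr3:68813840-68813861) lie on the plus strand in an intron of Smc4, which encodes a condensin subunit. On chromosome 11, miR-497-5p (chr11:70048232-70048253) and miR-195-5p (chr11:70048564-70048584) lie on the plus strand. On the X chromosome, miR-322-5p (chrX:50407483-50407504) and miR-503-5p (chrX:50407204-50407226) lie on the minus strand. At the chromosome 11 and X sites the annotation holds the miRNA genes alone. Since both copies give the same mature miR-16-5p, its counts cannot be divided between chromosomes 14 and 3.

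Total counts were 2064562 to 3253798 per mouse, of which the miRNA class made up 9.23 to 12.7%. The first principal component held 47.3% of the variance over small RNAs and set M1N (-73.0) and M2N (-35.4) apart from the other 6 mice (4.4 to 34.5). The comparison was therefore repeated against M1N and M2N alone and against TN1 and TN2 alone. The 6 germ cell and gonad miRNAs used to check the tissue, among them miR-34c-5p, summed to 17218 to 22233 CPM (read counts scaled to a common library size, here and for all levels with TMM factors). None was at 0 in any mouse.

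The family was a sizeable part of testis miRNA, and 2 members carried most of it. All 14 members made up 5.47 to 7.31% of the counts of the miRNA class. miR-16-5p, with 3034 ± 373 CPM (SD, n = 8), was the ninth of 576 mature miRNAs by mean level and held 44.6 ± 3.98% of the family's counts. miR-15b-5p, with 2138 ± 128 CPM, was the thirteenth and held 31.5 ± 2.18%. Then came miR-195-5p (586 ± 71.9 CPM), miR-15a-5p (404 ± 33.3), miR-322-5p (342 ± 153), miR-503-5p (104 ± 48.2) and miR-497-5p (90.6 ± 20.2). The 3p arms followed, led by miR-16-2-3p with 40.6 ± 6.52 CPM, then miR-322-3p, miR-15b-3p and miR-15a-3p at 15.4 to 16.8 CPM. miR-503-3p, miR-497-3p and miR-195-3p had mean counts of 8.5, 8.5 and 7.1 and did not pass the filter on low counts, so 11 of 14 members were tested.

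The upper part of this order held in each mouse. miR-16-5p exceeded miR-15b-5p in 8 of 8 mice, miR-15b-5p exceeded miR-195-5p in 8 of 8, and miR-195-5p exceeded miR-15a-5p in 8 of 8. The next places were not separated: miR-15a-5p was above miR-322-5p in 5 of 8 mice, with a mean log2 ratio of 0.35 ± 0.58, and miR-503-5p above miR-497-5p in 5 of 8, with 0.12 ± 0.32. Likewise miR-322-3p was above miR-15b-3p in 3 of 8 mice and miR-15b-3p above miR-15a-3p in 5 of 8.

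**Figure D1:**
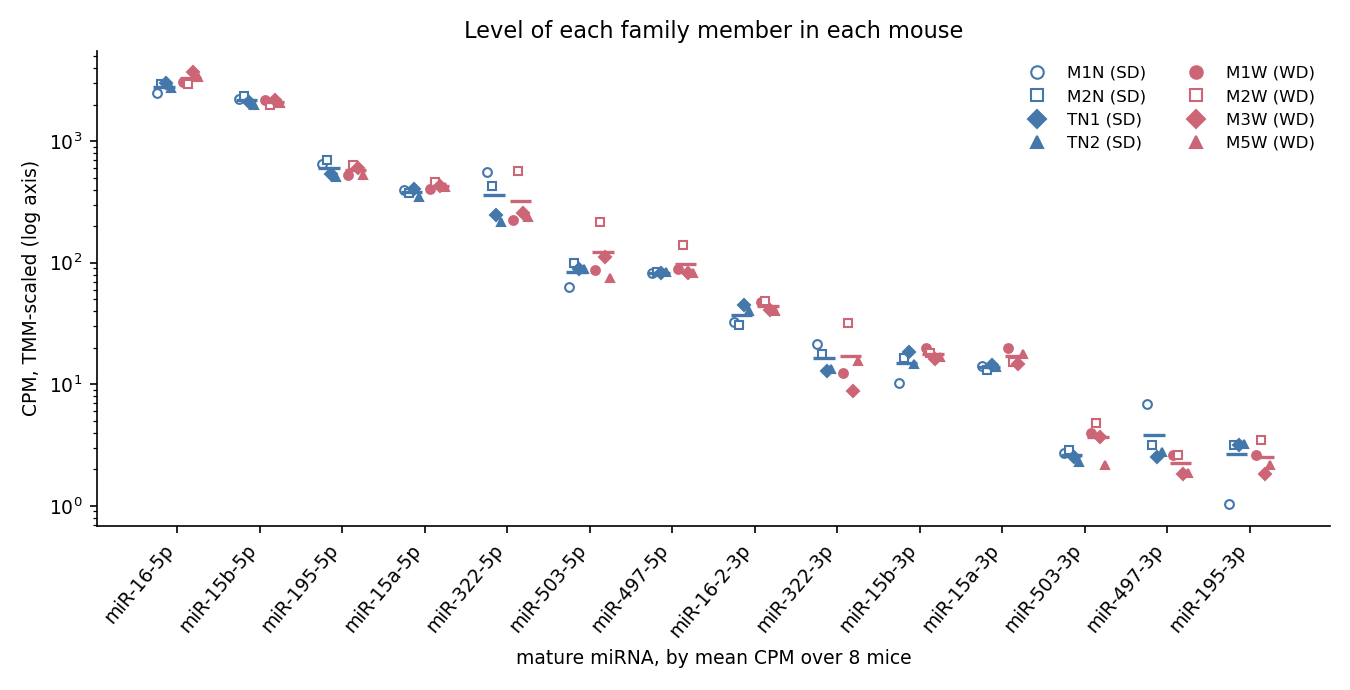
CPM (log axis) of the 14 members, ordered by mean level, with 1 symbol per mouse, SD mice in blue, WD mice in red, bars at the group means and open symbols for M1N, M2N and M2W. miR-15b-5p spans 1988 to 2354 CPM and miR-16-5p 2473 to 3680 CPM, whereas miR-322-5p spans 214 to 573 CPM.

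No family member differed between the diets at an adjusted p under 0.05. Of all 16955 small RNAs tested, 0.0% passed that limit by edgeR's quasi-likelihood fit and the Benjamini-Hochberg method. None of the 11 members had an unadjusted p under 0.05 in edgeR or in DESeq2, and 69 of 418 miRNA entries tested had one of 0.05 or less in edgeR. No member met the limits that the study used for miRNAs, a 1.5-fold change at an unadjusted p up to 0.1, which 15.1% of the miRNA class met. The log2 fold change (WD over SD) was above 0 for 8 of 11 members, with a median of 0.23, beside 219 of 418 entries of the miRNA class with a median of 0.03. These shares describe the members that passed the filter.

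The Mir15a gene gave the members whose diets did not overlap. miR-15a-5p was at 395, 371, 404 and 349 CPM in M1N, M2N, TN1 and TN2, and at 408, 458, 425 and 420 CPM in M1W, M2W, M3W and M5W. Every WD mouse lay above every SD mouse, with a gap of 404 to 408 CPM between the nearest mice. The log2 fold change was 0.17 (95% interval -0.14 to 0.48), with a Benjamini-Hochberg adjusted p of 0.563 in edgeR. The 3p arm of the same precursor, miR-15a-3p, had 14.1, 13.1, 14.5 and 13.9 CPM in the SD mice and 20.1, 15.3, 14.7 and 17.7 CPM in the WD mice. Here too each WD mouse was above each SD mouse, by a margin of 14.5 to 14.7 CPM at 30 to 61 counts per mouse. Its log2 fold change was 0.30 (-0.13 to 0.73), with a Benjamini-Hochberg adjusted p of 0.465 in edgeR. The exact permutation test (two-sided) gave p = 0.0286 for either arm, the smallest value that 70 assignments allow and the value that any member without overlap takes. These 2 of 11 tested members compare with 8.37% of the miRNA class. Scaled by column totals, only the 5p arm stayed without overlap (355 to 414 against 423 to 456 CPM), and with TMM factors from the miRNA class neither did, M2W falling to 366 CPM for the 5p arm.

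miR-16-5p, the leading member, pointed the same way without separating the diets. The SD mice had 2473, 2953, 3007 and 2725 CPM and the WD mice 3063, 2975, 3680 and 3398 CPM. M1N was lowest and M3W highest, and M2W lay within the SD range. The log2 fold change of 0.23 (95% interval -0.11 to 0.58) had a Benjamini-Hochberg adjusted p of 0.477 in edgeR, and the exact permutation test (two-sided) gave p = 0.0571. Its log2 fold change was 0.27 against M1N and M2N and 0.19 against TN1 and TN2.

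The chromosome 3 members gave smaller or less even differences. miR-15b-5p, made from the same primary transcript as 1 copy of miR-16, was at 2231, 2354, 2088 and 1990.3 CPM in the SD mice and at 2199, 1988, 2196 and 2060.2 CPM in the WD mice. The groups lay in the same range, with a log2 fold change of -0.04 (95% interval -0.36 to 0.29; Benjamini-Hochberg adjusted p of 0.917 in edgeR). The 3p arm of the second miR-16 gene, miR-16-2-3p, was at 32.6 and 30.6 CPM in M1N and M2N and at 44.7 and 40.3 CPM in TN1 and TN2. The WD mice had 47.7, 48.7, 40.5 and 39.8 CPM, which overlapped the TN mice and lay above the M pair. Accordingly, its log2 fold change was 0.26 against all SD mice, 0.48 against M1N and M2N and 0.05 against TN1 and TN2, with Benjamini-Hochberg adjusted p of 0.487, 0.103 and 1.0 in edgeR. miR-15b-3p ranged from 10.3 to 18.6 CPM in the SD mice and from 16.1 to 20.1 CPM in the WD mice.

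The chromosome 11 members showed no separation of the diets. miR-195-5p was at 651, 698, 535 and 506 CPM in the SD mice and 527, 641, 604 and 525 CPM in the WD mice, with M1N, M2N and M2W highest. Its log2 fold change of -0.06 (95% interval -0.41 to 0.29; Benjamini-Hochberg adjusted p of 0.878 in edgeR) became 0.14 against TN1 and TN2. miR-497-5p was nearly uniform in 7 mice, at 82.6, 83.5, 81.9 and 83.8 CPM in the SD mice and 88.1, 82.0 and 82.1 CPM in M1W, M3W and M5W. M2W alone, at 140.3 CPM, stood outside this range. The evenness depended on the scaling. These 7 mice spanned 74.2 to 91.4 CPM with column totals and 73.6 to 94.8 CPM with TMM factors from the miRNA class. M2W was highest under both, at 139.7 and 112.1 CPM. The log2 fold change of miR-497-5p was 0.24 with M2W and 0.02 (95% interval -0.33 to 0.37) without it.

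Of the 4 gene pairs, the X-linked pair varied most from mouse to mouse. miR-322-5p, the mouse counterpart of human miR-424, was at 555 and 431 CPM in M1N and M2N but at 246 and 214 CPM in TN1 and TN2. Among the WD mice M2W had 573 CPM, and M1W, M3W and M5W had 223, 258 and 238 CPM. Thus M1N, M2N and M2W were high and the other 5 low, a division that crossed the diets. The log2 fold change was -0.17 (95% interval -0.86 to 0.52; Benjamini-Hochberg adjusted p of 0.819 in edgeR). It was -0.61 (-1.18 to -0.04) against M1N and M2N, 0.48 (-0.10 to 1.06) against TN1 and TN2 and -0.59 without M2W. Its 3p arm was likewise high in M1N, M2N and M2W, at 21.6, 17.9 and 32.0 CPM, with 8.75 to 15.6 CPM in the other 5 mice.

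miR-503-5p, the neighbour of miR-322-5p on the same strand, did not share the high level in M1N. The SD mice had 62.7, 99.5, 88.5 and 88.003 CPM and the WD mice 87.1, 217.5, 112 and 75.3 CPM. M1N was lowest and M2W highest of all. The log2 fold change of 0.53 (95% interval -0.06 to 1.12; unadjusted p of 0.0741 and Benjamini-Hochberg adjusted p of 0.372 in edgeR) had the lowest p of the 11 members, just under the 1.5-fold limit. Without M2W it was 0.11 (-0.33 to 0.55), and it passed both limits without M2N (0.62), M1W (0.67) or M5W (0.72). Against M1N and M2N alone, 2 members met the limits of p and fold, miR-322-5p (-0.61, unadjusted p = 0.0375 in edgeR) and miR-503-5p (0.59, unadjusted p = 0.0693 in edgeR), among 34.0% of the miRNA class. None met them against TN1 and TN2, where 14.9% of the class did, and no member had an adjusted p under 0.05 against either pair (18.5% and 4.07% of the class).

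The ratio of miR-322-5p to miR-503-5p, which does not depend on library size, was 8.84 in M1N and 4.33 in M2N and between 2.30 and 3.17 in the other 6 mice. By contrast, the ratio of miR-322-5p to miR-351-5p, a miRNA with another seed from the same X-linked cluster, stayed within 6.59 and 10.8 over all 8 mice. miR-351-5p was at 73.7, 45.3, 33.1 and 28.7 CPM in the SD mice and 33.9, 71.5, 23.96 and 31.1 CPM in the WD mice, high in M1N, M2N and M2W like miR-322-5p. Of the 9 neighbours in this cluster that were looked for, 6 were listed and 5 tested. None had an adjusted p under 0.05 against all SD mice, and 2 had an unadjusted p of 0.05 or less in edgeR and 1 in DESeq2. By the limits of p and fold, miR-542-3p (0.74) and miR-450a-5p (0.96) were higher and miR-542-5p (-1.36) lower in the WD mice, all at mean counts of 12.2 to 19.1, beside 15.1% of the miRNA class. These values depended on the SD mice used. Against M1N and M2N alone miR-542-5p was at -1.86 and miR-450a-5p at 1.81, with Benjamini-Hochberg adjusted p of 0.0018 and 0.0215 in edgeR, among 18.5% of the class below 0.05. Against TN1 and TN2 alone they were at -0.58 and 0.39, and none of the 5 had an adjusted p under 0.05. miR-542-3p was at 0.48 against the M pair and 1.07 against the TN pair.

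**Figure D2:**
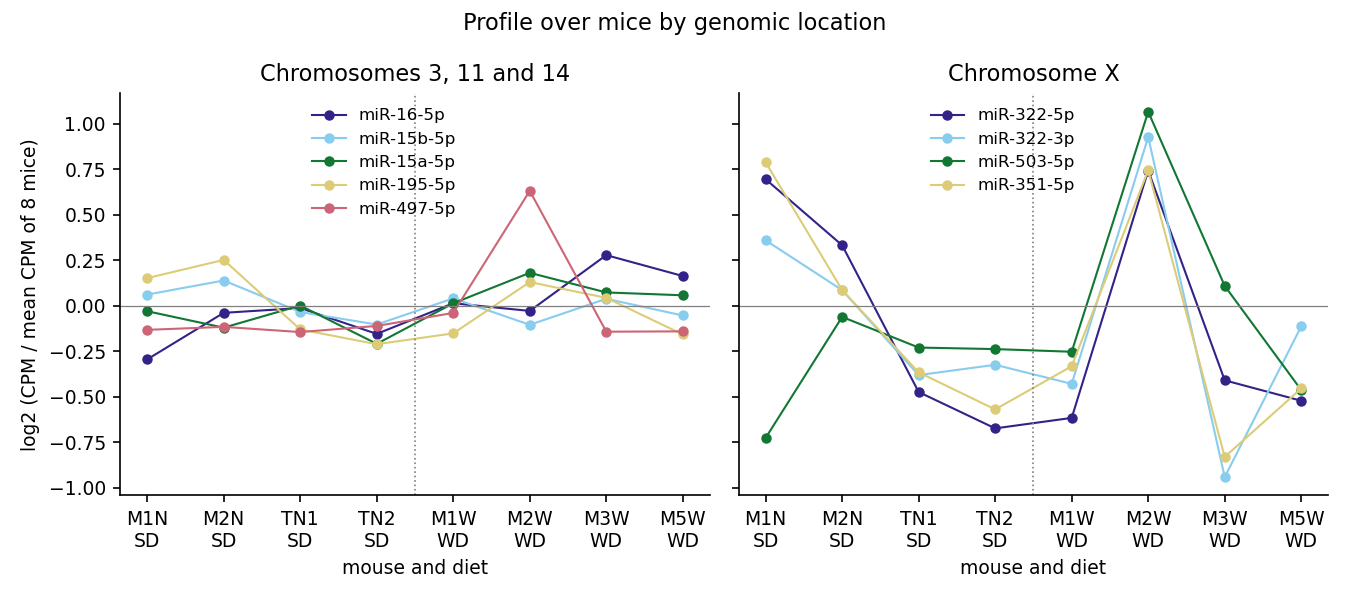
Log2 of each miRNA's CPM over its mean of the 8 mice, for 5p arms from chromosomes 3, 11 and 14 (left) and for X-linked members with their neighbour miR-351-5p (right). Lines join the values of 1 miRNA, and the dotted line parts SD from WD mice. On the right M2W is high for all 4, while M1N is high for miR-322 and miR-351-5p and lowest for miR-503-5p.

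Summed markers of muscle, vessel and stroma and of blood were also highest in M1N, M2N and M2W. The germ cell and gonad sum was highest in M3W, at 22233 CPM, with 21381, 19311 and 21435 CPM in M1N, M2N and M2W. For muscle, vessel and stroma, the 9 of 10 listed markers summed to 7051, 7144, 5476 and 4981 CPM in M1N, M2N, TN1 and TN2 and to 5071, 9380, 6583 and 5127 CPM in M1W, M2W, M3W and M5W. The 7 of 8 listed blood markers summed to 580, 442, 391 and 337 CPM in the SD mice and 302, 581, 382 and 279 CPM in the WD mice. M3W, low for miR-322-5p, had a stroma sum close to that of M1N. miR-145-5p made up 56.2% of the stroma sum. M1N, M2N and M2W were the 3 highest mice for 4 of 9 stroma markers and 2 of 7 blood markers. They were also the 3 highest for 2 of the 6 germ cell and gonad markers, miR-34b-3p and miR-202-3p, so this division was not particular to stroma and blood. Neither the stroma nor the blood sum separated the diets, and no marker of these lists was at 0 in any mouse. The part of any of these cell types in the levels of miR-322 and miR-503 was not tested. In whole tissue, fewer cells of a type and less RNA per cell cannot be told apart.

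Beside this X-linked variation, the abundant members were among the most even miRNAs in the tissue. Over 8 mice the coefficient of variation of miR-15b-5p was 6.00%, the lowest of 209 mature miRNAs with a mean count of 50 or more, whose median was 25.9%. miR-15a-5p was the third (8.23%), miR-195-5p the thirteenth and miR-16-5p the fourteenth (12.3% each). miR-322-5p (44.7%, place 186) and miR-503-5p (46.5%, place 190) were near the other end. With column totals miR-15b-5p kept place 1, but with TMM factors from the miRNA class it took place 16 (11.8%) and miR-16-5p place 82 (19.7%). miR-322-5p and miR-503-5p lay between places 168 and 200 under those scalings and also without M1N and M2N.

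**Figure D3:**
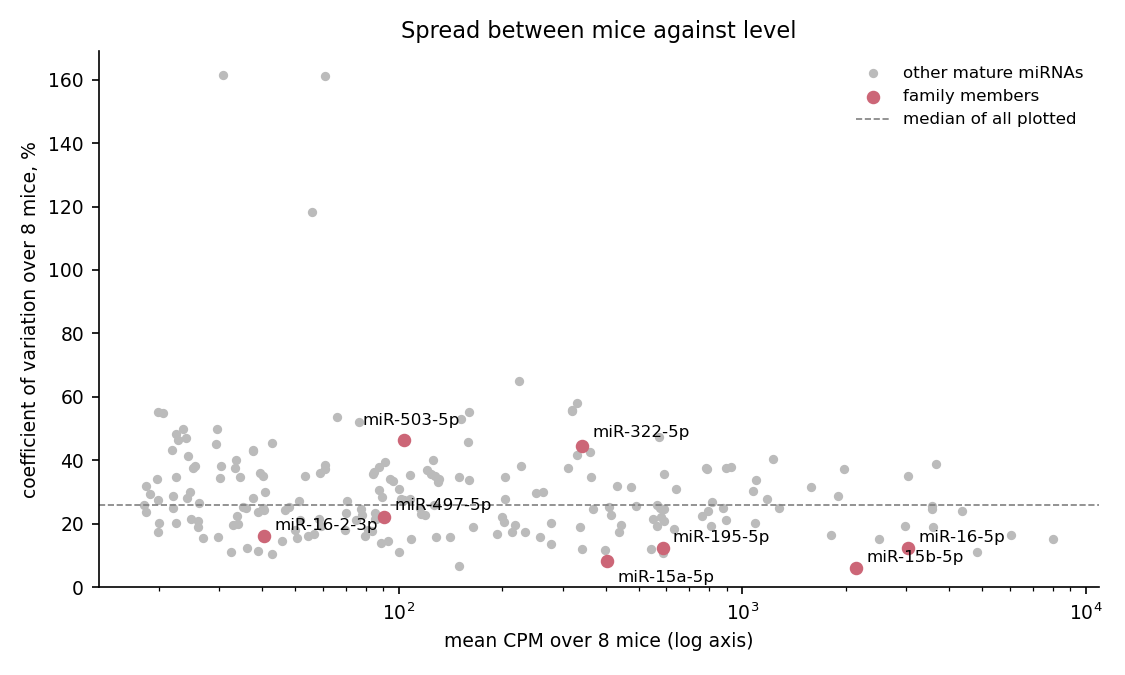
Coefficient of variation over 8 mice against mean CPM (log axis) for 209 mature miRNAs, with family members in red and the dashed line at the median of 25.9%. miR-15b-5p is the lowest point at 6.00%, and miR-322-5p and miR-503-5p lie above 44%.

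The family's summed level overlapped between the diets. The 6 members with the seed of miR-16-5p summed to 6387, 6891, 6363 and 5869 CPM in the SD mice and to 6508, 6775, 7243 and 6724 CPM in the WD mice. The means were 6377 ± 417 and 6813 ± 310 CPM (SD, n = 4 each). By gene pair, Mir15b with Mir16-2 3p (5.64%) and the Mir15a arms (8.16%) had the lower coefficients of variation over 8 mice, and Mir322 with Mir503 the highest at 40.4%. miR-16-5p was left out of these sums, since it has 2 sources.

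**Figure D4:**
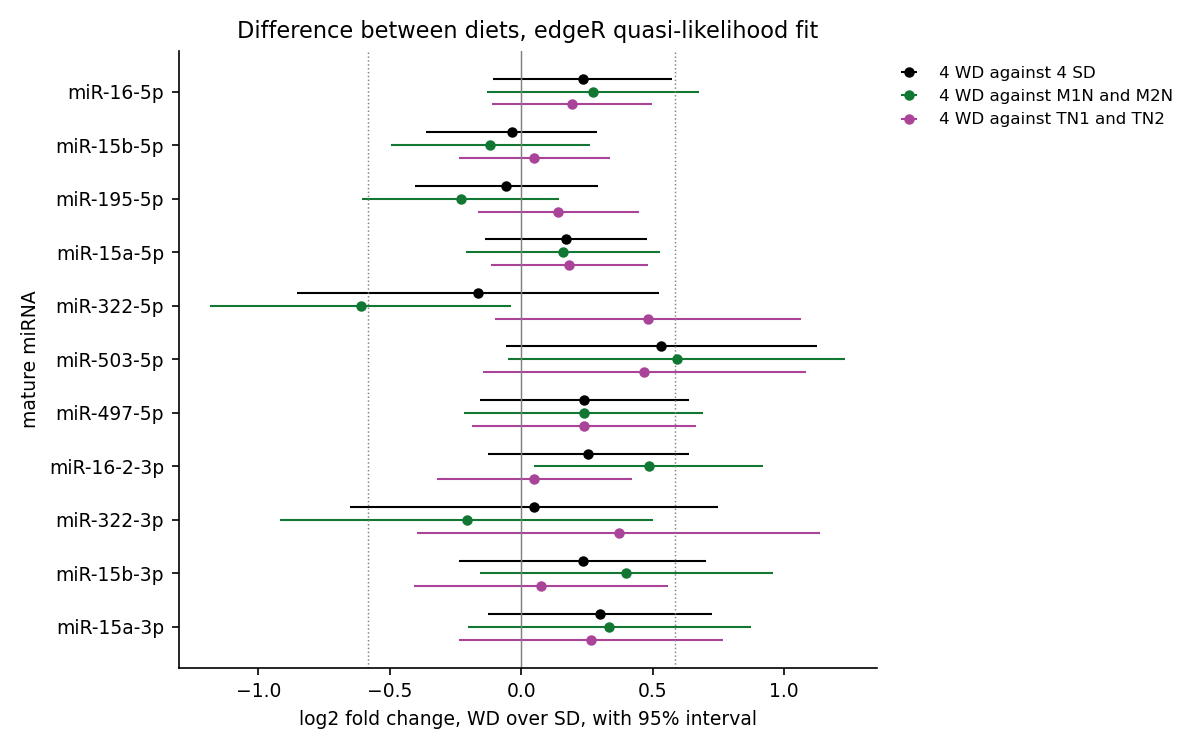
Log2 fold change (WD over SD) with 95% intervals for the 11 tested members, against all 4 SD mice (black), M1N and M2N (green) and TN1 and TN2 (purple), with dotted lines at 1.5-fold. All black intervals include 0, and the green and purple estimates for miR-322-5p lie on opposite sides of 0, at -0.61 and 0.48.

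The 5p arm exceeded the 3p arm in all 8 mice for the 6 precursors with arms of their own. The miR-16 genes were left out, since they share the 5p arm. The median ratio of 5p to 3p counts over 8 mice was 210 for miR-195, 129 for miR-15b and 34.6 for miR-503. It was 33.0 for miR-497, 28.0 for miR-15a and 18.5 for miR-322. These are ratios of the raw counts, whereas 0.5 was added to each count for log2 ratios. For miR-15a the ratio ranged from 20.3 to 29.8. Both arms of miR-15a lay higher in every WD mouse, while their ratio overlapped between the diets. The ratio of miR-497 was the exception, at 12.05, 26.2, 32.5 and 30.2 in the SD mice and 33.5, 53.3, 44.5 and 44.0 in the WD mice. Every WD mouse was above every SD mouse, though TN1 and M1W were close. Behind it were 20, 10, 8 and 6 counts of miR-497-3p in the SD mice and 8, 6, 4 and 6 in the WD mice, so that the counting error is large. This was 1 of 6 precursors, beside 4.19% of 191 precursors in the table with both arms listed.

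**Figure D5:**
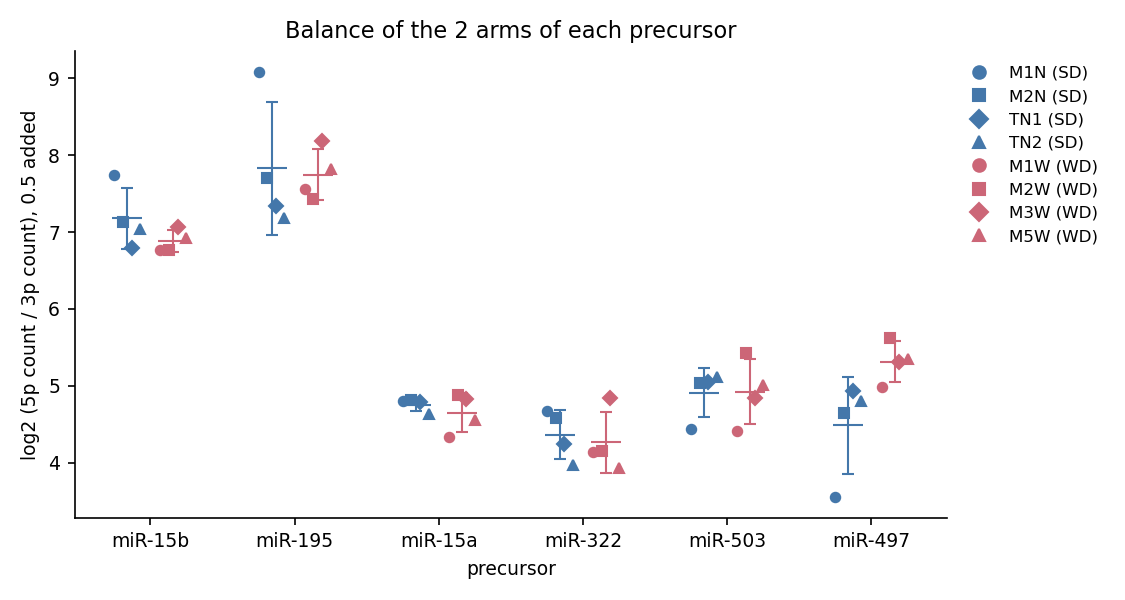
Log2 ratio of 5p to 3p counts, 0.5 added to each, for 6 precursors. There is 1 symbol per mouse, SD in blue and WD in red, with group means and SD as error bars. Only for miR-497 do all WD mice (4.98 to 5.62) lie above all SD mice (3.56 to 4.94).

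The entries named for the precursors had few counts, and none of the 3 tested had an adjusted p under 0.05 against all SD mice. The limits of p and fold were met by pre-mir-16-1 (unadjusted p of 0.0147 in edgeR) and pre-mir-16-2 (0.0442), beside 15.1% of the miRNA class. pre-mir-16-1 was at 11.3, 6.70, 8.19 and 8.34 CPM in the SD mice and 5.59, 5.26, 5.99 and 3.11 CPM in the WD mice, without overlap, as for 8.37% of the miRNA class (log2 fold change -0.81, Benjamini-Hochberg adjusted p of 0.318 in edgeR). pre-mir-16-2 was at 4.11, 12.4, 15.1 and 14.4 CPM in the SD mice and 18.7, 12.7, 23.5 and 19.3 CPM in the WD mice, with overlap (0.69, Benjamini-Hochberg adjusted p of 0.338 in edgeR). M1N was lowest, and without it the value was 0.41 and without M3W 0.57, both under the 1.5-fold limit. It was 1.15 against M1N and M2N (Benjamini-Hochberg adjusted p of 0.0245 in edgeR, among 18.5% of the class) and 0.33 against TN1 and TN2 (adjusted p of 1.0). pre-mir-15b had a log2 fold change of -0.33, and pre-mir-15a, with a mean count of 2.6, was not tested. The difference between the miR-16 entries was not tested. How reads were shared between these entries and the mature miRNAs is not given in the sources used here.

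The miRNAs outside the family whose profile over the 8 mice was most like that of miR-16-5p were miR-19b-3p, miR-669o-3p and miR-669a-3p. The root mean square difference of their centred log2 CPM was 0.12, 0.13 and 0.14, beside a median of 0.39 for 201 miRNAs compared. Within the family it was 0.15 for miR-15a-5p, 0.18 for miR-15b-5p and 0.66 for miR-322-5p. These points come from the same 8 libraries and share their depth and scaling.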

How the data were processed

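Testis small RNA of 8 mice was sequenced on a SOLiD instrument. As the authors describe, reads were trimmed (to the adaptor, or to 31 bases) and mapped on mm9 by Bowtie with up to 2 mismatches, and names came from miRBase 18 and further databases. The deposited values are raw counts for each mouse, neither pooled nor normalised. The handling of reads with several matches is not given in the sources used here. Total counts were 2064562 to 3253798.

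All small RNAs were fitted together in edgeR 4.0.16 under R 4.3.3, with TMM factors, column totals as library sizes, filterByExpr (minimum count 10, minimum total 15) and the two-sided quasi-likelihood test, diet being the only term. Benjamini-Hochberg adjustment ran over 16955 small RNAs. DESeq2 1.42.0 was an alternative. The procedure was tested on simulated data. Libraries were compared in 28 pairs by chi-square (2.56 to 24.4 per degree of freedom), and none was a repeat of another.

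The members and lists were chosen with earlier results of these data known. Described in full were members with a mean count of 50 or more, an unadjusted p up to 0.1, or no overlap between diets.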

Additional observations from a re-analysis of the deposited data

Results flagged for a closer look

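Among 42 groups of 4 mice examined (the levels of 14 members, 6 arm ratios and the summed level of the 6 members with the seed of miR-16-5p, in both diets), 6 had a mouse apart from the other 3 by Dixon's criterion, which sets the gap to the nearest mouse against the range, and chance alone gives about 5% of groups, or 2.1. In the WD mice M2W was apart for miR-322-5p, at 573 CPM against 223 to 258 CPM, and for miR-497-5p, at 140.3 CPM against 82.0 to 88.1 CPM. In the SD mice M1N was apart for miR-497-3p, at 6.85 CPM (20 counts) against 2.52 to 3.19 CPM, and for miR-195-3p, at 1.03 CPM (3 counts) against 3.15 to 3.24 CPM. The log2 ratio of 5p to 3p counts, 0.5 added to each, was apart in TN2 for miR-15a, at 4.63 against 4.79 to 4.81. In M1N it was apart for miR-503, at 4.43 against 5.04 to 5.11.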

How the results depend on the processing

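No member had an adjusted p under 0.05 under any alternative run. Of 187 alternative fold changes of the 11 tested members, 175 kept their sign and 12, from 4 members, did not. Of the 12, those with column totals (miR-15b-5p and miR-195-5p) go with a shift of all small RNAs, whose median log2 fold change moved from -0.006 to 0.051. miR-15b-5p turned to 0.05 against TN1 and TN2, to 0.02 with column totals and ranged from -0.075 to 0.008 (without M2N) with 1 mouse left out. miR-195-5p turned to 0.14 against TN1 and TN2, to 0.002 with column totals and ranged from -0.129 to 0.028 (without M2N). miR-322-5p turned to 0.48 against TN1 and TN2 and ranged from -0.59 (without M2W) to 0.12 (without M1N). miR-322-3p turned to -0.21 against M1N and M2N and ranged from -0.40 to 0.25. The count of members at p of 0.1 or less and 1.5-fold, 0 as reported, was 2 against M1N and M2N (34.0% of the miRNA class), 1 of 14 with no filter on low counts (miR-497-3p, lower; 16.6% of the class) and 0 to 2 with 1 mouse left out. It was 1 without M2N, M1W or M2W, where 13.4%, 15.7% and 22.9% of the class met the limits, and 2 of 12 without M5W, where 60 of 429 entries did. miR-503-5p met the limits without M2N (0.62), M1W (0.67) and M5W (0.72), and miR-322-5p without M2W. The members without overlap, 2 as reported, were 1 with column totals and 0 with TMM factors from the miRNA class. By median count 6 of 14 places in the order changed. The place of miR-15b-5p by evenness, 1 as reported, was 16 with miRNA-class factors and 2 without M1N and M2N, both chosen after seeing the data.

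A replicate block was possible in the M1 and M2 mice alone. Their deviations from the group means correlated at -0.075 for M1N with M1W and 0.232 for M2N with M2W, so the numbers were not taken as pairs. With the block 2 of 12 members met the limits of p and fold, miR-503-5p (0.81) and miR-16-2-3p (0.61), beside 27.9% of the class, and with no block in the same 4 mice also 2, beside 28.1%. The causes were not tested. Depth limited the 3p arms of miR-195, miR-497 and miR-503, at 3 to 20 counts per mouse.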

Other observations

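miR-103-3p and miR-107-3p carry bases 3 to 8 of the family seed at their bases 2 to 7, and are shown with bases 2 to 8 in capitals.
miR-103-3p: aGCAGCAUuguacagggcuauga
miR-107-3p: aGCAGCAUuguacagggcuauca
They differ from each other at 1 base (G22C), within the 2 mismatches allowed. miR-103-3p was at 4184, 3967, 2497 and 2799 CPM in M1N, M2N, TN1 and TN2 and at 2779, 5273, 3798 and 3271 CPM in M1W, M2W, M3W and M5W, so it exceeded miR-16-5p in some mice and not in others. M1N, M2N and M2W were again the highest. miR-107-3p had 597 to 908 CPM in the SD mice and 697 to 1185 CPM in the WD mice. All 5 arms of these genes that were looked for were listed and tested, and none had an adjusted p under 0.05 or an unadjusted p of 0.05 or less in edgeR or DESeq2. Against TN1 and TN2 alone the log2 fold changes were 0.51 and 0.50, with an unadjusted p of 0.0179 and 0.0156 and a Benjamini-Hochberg adjusted p of 1.0 for both in edgeR.

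RefSeq lists miR-195b, miR-6342, miR-6353 and miR-6419 with the seed of miR-16-5p. They were not analysed here.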
